A study of Mus musculus with 1248 samples.

Results

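4T1 tumour cells recovered from bone 4 days after injection into the heart were set against 4T1 tumour cells of a mammary fat pad tumour labelled day 22. The members were 212 sequenced wells, 128 from bone and 84 from the fat pad, of 1248 wells in the whole series and 449 wells that the same rule calls tumour over all 7 groups. 4T1 is a mammary carcinoma line of the BALB/c mouse strain that grows in hosts with a working immune system and spreads to distant organs. In bone, 4T1 cells carrying firefly luciferase and mCherry had been given to female BALB/c mice by intracardiac injection, and mCherry-positive cells of the hindlimbs were sorted into single wells. In the fat pad group, 4T1 cells had been injected into the mammary fat pad. The labels give no age, no number of mice, no pooling of animals and no statement on whether the line is 1 clone. Site, day and route of injection differed together between the groups and cannot be told apart, and no plate or sequencing run is named that could be set beside them. Since no animal, plate or culture is named for any well, each group counts as 1 sample, no difference was tested, and no p-value is given.

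The members were chosen from the readout. A well was taken as tumour when 1000 or more genes were detected, 50000 or more counts fell in genes and mitochondrial counts made up 25% or less. Its level of Krt8 plus Krt18 in CPM (counts per 1000000 counts in genes) also had to exceed the summed CPM of 10 genes of blood cells (Ptprc, Coro1a, Laptm5, Cd52, Cd53, Rac2, Was, Spi1, Vav1 and Cd37), with that blood sum under 300 CPM. Krt8 and Krt18 form the keratin pair of simple epithelia. These 12 genes are therefore a description here and not a result. Krt8 plus Krt18 was 268 CPM in the lowest, 3731 in the median and 11214 in the highest bone tumour well, against 865, 4541 and 12411 in fat pad tumour wells. Wells with at least 300 CPM of the blood sum, and more of it than of the keratin pair, are called blood wells below, and their median keratin level was 14.5 CPM in bone and 73.1 CPM in the fat pad. The reporter mCherry, which the rule did not use, had a median of 428 CPM in bone tumour wells and 593 CPM in fat pad tumour wells. Wells with low mCherry had been discarded before sequencing, so this level is a description and cannot set tumour wells apart from others. The median blood sum in tumour wells was 67.2 CPM in bone and 7.33 CPM in the fat pad. Among bone wells under the blood limit, the well just inside the rule held 268 CPM of keratin against 77.4 CPM of the blood sum, and the well just outside 11.4 against 38.6. At the blood limit itself, the highest tumour well held a blood sum of 290 CPM in bone and 285 CPM in the fat pad. The lowest well left out there, with more keratin than blood sum, held 341 and 573 CPM. The rule kept 25.8% of bone wells that passed the quality limits (128 of 496, exact 95% binomial interval 22.0 to 29.9) and 88.4% of fat pad wells (84 of 95, 80.2 to 94.1).

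Tumour wells held 351128 to 5766264 counts in bone, median 3392356, and 347543 to 4052849 in the fat pad, median 2988316. Summed over wells, the groups held 419260344 and 238974631 counts. Levels of a group are CPM of these sums, and levels of a well are CPM of that well alone. At 20 CPM or more the exact 95% Poisson interval of a summed value reached at most 2.91% above it. Intervals cover counting error only, and the libraries carried no molecular identifiers. Ratios are log2 of bone over fat pad with 5 CPM added to both, which understates the difference of genes with few counts. A gene counted as measured at 5 CPM or more in either group. A gene that passed only through the group where it was higher tended to differ for that reason, so counts and medians over measured genes are descriptions. The median tumour well had 10837.5 detected genes and 2.84% mitochondrial counts in bone, against 9826.5 and 4.45% in the fat pad. The part of these differences in the results was not tested.

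Wells from bone carried RNA of blood cells along with the keratins. The 10 neutrophil markers summed to 261 to 2825 CPM in bone tumour wells, median 668, and to 1.04 to 2660 CPM in fat pad tumour wells, median 3.32. In blood wells the same list stood at 76430 CPM in bone and 452 CPM in the fat pad. No marker of the list lacked a count in bone, and Mpo lacked one in the fat pad. The 10 macrophage markers summed to 40.0 to 464 CPM in bone tumour wells and to 11.2 to 662 CPM in fat pad tumour wells, with all 10 counted in both groups. The 8 B cell markers summed to 15.1 to 631 CPM in bone and to 0 to 88.0 CPM in the fat pad, where Cd79b, Ms4a1 and Igll1 were among the markers with no count. Values of these lists stand below beside the genes they move with.

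Of 10487 measured genes, 927 stood at least 2-fold higher in bone, which is 8.84%, and 945 at least 2-fold lower, which is 9.01%. These shares belong beside the counts of members of every list below. The median log2 ratio over all of them was 0.05. Of 31 lists of tumour cell programmes, 6 had a median at or above 0.5 and 8 at or below −0.5, and 17 lay between. The higher lists in bone were those of the cell cycle (G2 and M phase, S phase), serine and one-carbon metabolism, ribosome biogenesis, mesenchymal genes and the integrated stress response. Lower in bone were MHC class II, epithelial junctions, MHC class I, hypoxia, the other keratins, NF-kB targets, checkpoint genes and growth factors. Not all of these calls were stable over 14 other settings of the processing. Growth factors lost theirs in 9, checkpoint genes and the integrated stress response in 3 each, NF-kB targets in 2 and mesenchymal genes in 1.

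**Figure D1:**
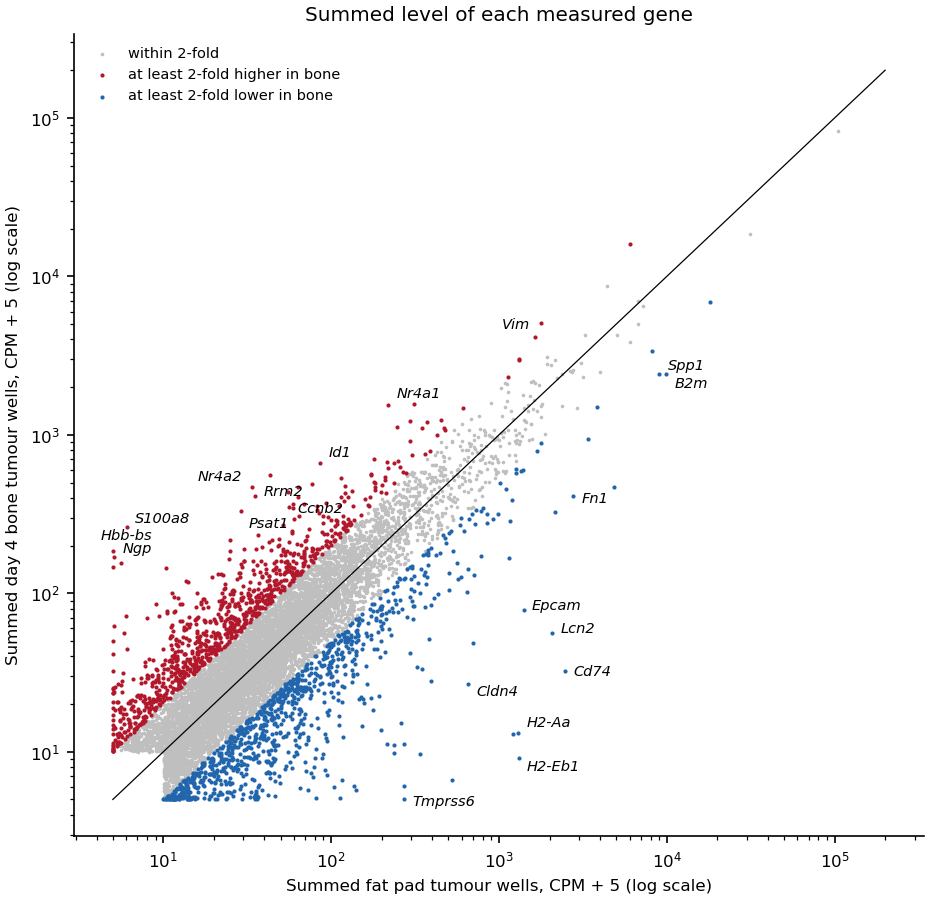
Each point is a measured gene, with its level in the summed bone tumour wells on the y axis and in the summed fat pad tumour wells on the x axis, both as CPM plus 5 on log scales, and equal levels on the line. Red genes were at least 2-fold higher and blue genes at least 2-fold lower in bone, and the MHC class II genes H2-Eb1 (4.07 CPM in bone, 1305 in the fat pad) and H2-Aa lie far below the line.

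The widest gap between the groups lay in antigen presentation. Major histocompatibility complex (MHC) class II molecules show peptides to helper T cells and are made mainly by dendritic cells, macrophages and B cells, while epithelial and tumour cells can be brought to make them by interferon gamma through the transactivator Ciita. MHC class I molecules show peptides of the cell's own proteins to cytotoxic T cells, and most cell types make them. The promoters of the class II genes carry a Y box, bound by the factor NF-Y, beside the X box. The stretches below, shown because these genes form the largest difference, run 5′ to 3′ from 150 bases before to 20 bases after the annotated start on the strand of the gene (RefSeq, build GRCm38.p6) and have the Y box letters TGATTGG in capitals. They are chr17:34305717-34305886 on the plus strand for H2-Eb1, chr17:34287804-34287973 on the minus strand for H2-Aa and chr17:34153041-34153210 on the plus strand for H2-DMb1.
H2-Eb1: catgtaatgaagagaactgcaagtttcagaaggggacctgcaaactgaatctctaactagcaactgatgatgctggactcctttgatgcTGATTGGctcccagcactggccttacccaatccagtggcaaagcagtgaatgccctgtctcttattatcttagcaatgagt
H2-Aa: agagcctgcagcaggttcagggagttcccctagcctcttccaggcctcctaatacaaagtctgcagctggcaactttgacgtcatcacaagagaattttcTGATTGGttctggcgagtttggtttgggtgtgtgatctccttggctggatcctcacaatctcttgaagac
H2-DMb1: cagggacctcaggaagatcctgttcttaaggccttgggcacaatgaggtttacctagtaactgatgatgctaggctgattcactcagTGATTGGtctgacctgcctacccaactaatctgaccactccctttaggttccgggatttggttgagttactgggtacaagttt
The Y box lies at −61 to −55 in H2-Eb1, at −50 to −44 in H2-Aa and at −63 to −57 in H2-DMb1. Searched on both strands over 300 bases (250 before to 50 after the start), TGATTGG was found in 4 of the 6 measured class II genes with a RefSeq entry (66.7%), in 9 of 17 class I genes (52.9%), in 8.20% of 27025 promoters and in 10.9% of the 8116 promoters of measured genes. It was also found in 14 of 34 G2 and M phase genes (41.2%) and in 9 of 25 S phase genes (36.0%), which were higher in bone, and so was not particular to the lower lists. A match describes letters in this window and not a bound site. H2-Ab1 and Ciita had no entry.

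All 9 measured members of the 11 class II genes stood at least 2-fold lower in bone, against 9.01% of all measured genes, and their median log2 ratio was −5.49. H2-Eb1, the beta chain of the E molecule (chr17:34305867-34316674, plus strand, build mm10), had 0 CPM in the lowest, 1.43 in the median and 110 in the highest bone well, against 24.2, 1099.8 and 3870.0 CPM in fat pad wells. In 83 of 84 fat pad wells it lay above every bone well. Summed, H2-Eb1 stood at 4.07 CPM (95% interval 3.88 to 4.27) in bone and 1305 CPM (1300.3 to 1309.6) in the fat pad, a log2 ratio of −7.17. H2-Aa, the alpha chain of the A molecule, had 0, 2.30 and 396 CPM in the lowest, median and highest bone well, against 49.9, 1076 and 4327.5 in fat pad wells. In 75 of 84 fat pad wells it lay above every bone well, and its summed log2 ratio was −6.64. H2-Ab1, the partner beta chain, stood at 7.93 CPM in bone and 1214.5 CPM in the fat pad. Cd74, the invariant chain that guides class II molecules to the peptide-loading compartment, had 0, 7.30 and 475 CPM in the lowest, median and highest bone well, against 91.6, 2172 and 6490.1 in fat pad wells. The loading factors H2-DMa, H2-DMb1 and H2-DMb2 had log2 ratios of −4.11, −5.49 and −4.63, where the last 2 are near copies whose reads the counting could split. H2-Ea-ps, annotated as a pseudogene, stood at 1.6 CPM in bone and 517 in the fat pad. Ciita stood at 2.37 CPM in bone and 40.7 in the fat pad, a log2 ratio of −2.63, with a median well of 0 CPM in bone and 3.35 CPM in the fat pad. H2-Oa and H2-Ob were not measured at 5 CPM.

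The class II sum of a well separated the groups almost wholly. It ran from 4.86 to 1421 CPM in bone wells, median 29.9, and from 285 to 18216 CPM in fat pad wells, median 6235. Of 84 fat pad wells 82 lay above every bone well, and 124 of 128 bone wells lay below every fat pad well. Class II genes are also those of macrophages and B cells, whose markers were measured in the same wells. The quotient of class II over macrophage sums was 0.502 in bone tumour wells and 0.178 in bone blood wells, against 149.5 in fat pad tumour wells and 1.12 in the 10 fat pad blood wells. In the fat pad, tumour wells held 6997 CPM of class II genes beside 46.8 CPM of macrophage markers and 3.43 CPM of B cell markers, whereas the wells of blood cells held 13976 CPM beside 12521 CPM of macrophage markers. Of the bone wells 4 had H2-Aa at 20 CPM or more. Their class II sums ran from 70.9 to 1421 CPM, their macrophage sums from 65.2 to 215 CPM and their B cell sums from 26.7 to 631 CPM. The part of host RNA in those 4 wells was not tested.

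**Figure D2:**
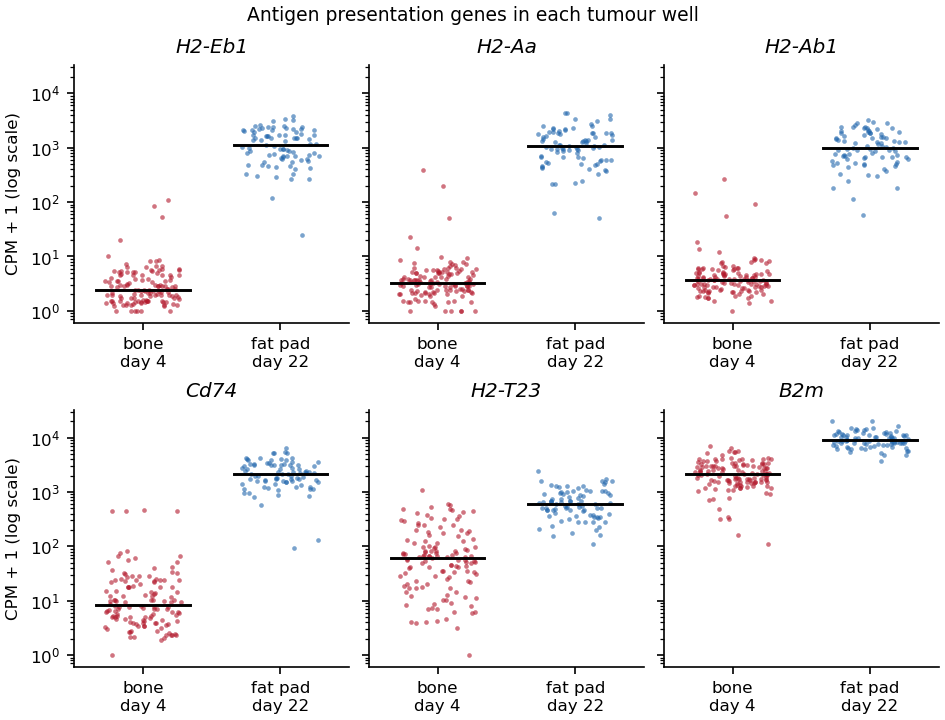
Each point is a tumour well, bone left and fat pad right in each panel, with CPM of that well plus 1 on a log axis and the bar at the median. For H2-Eb1 83 of 84 fat pad wells lie above every bone well, while the class I genes H2-T23 and B2m overlap more, with 67 of 84 fat pad wells above every bone well for B2m.

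Class I genes followed with smaller ratios. Of 20 members, all measured, 16 stood at least 2-fold lower in bone and none stood higher, with a median log2 ratio of −1.50. B2m, the light chain of every class I molecule, had 108 CPM in the lowest, 2119 in the median and 7100.5 in the highest bone well, against 3657, 9121 and 20058 in fat pad wells. In 67 of 84 fat pad wells B2m lay above every bone well, and every fat pad well lay above the bone median. H2-K1 and H2-D1, heavy chains of the classical molecules, stood at 1487 and 3364 CPM in bone and 3827 and 8159 in the fat pad. H2-T23, which encodes Qa-1, a ligand of an inhibitory receptor on natural killer cells, had the ratio furthest down at −2.45. Reads of class I heavy chains can fall on near copies, so values of single H2 genes are uncertain. Psmb9 and Psmb8, immunoproteasome subunits, had log2 ratios of −1.88 and −1.52, and Tap1, a chain of the peptide transporter, had −1.50. Nlrc5, the transactivator of class I genes, stood at 43.1 CPM in bone and 150 in the fat pad. The class I sum of a well had a median of 8471 CPM in bone and 26982 in the fat pad, and 92 of 128 bone wells lay below every fat pad well.

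The list of type I interferon response genes did not reach the limit, with a median log2 ratio of −0.49 over 40 members. Of these, 12 stood lower and 3 higher by 2-fold, against 9.01% and 8.84% of all measured genes. The 3 higher members were thus near the share over all genes. Irf1, an interferon gamma target that belongs to the NF-kB list and not to this one, stood at 244 CPM in bone and 612 in the fat pad. Among the list members higher in bone were Cmpk2 and Rsad2, neighbouring antiviral genes, with 130 and 76.4 CPM in bone and 23.2 and 19.0 CPM in the fat pad. Their median bone wells held 1.52 and 1.35 CPM and their highest 5316 and 2959, so few wells carried the sums. By the median well the list stood at −1.63, and it passed the limit in 4 of 14 other settings. The interferon sum of a well had a median of 906 CPM in bone and 3245 in the fat pad. All 84 fat pad wells lay above the bone median, and 67 of 128 bone wells lay below every fat pad well. The other way, 6 bone wells lay above every fat pad well, the highest at 31977 CPM. Across bone wells the class I sum and the interferon sum had a Spearman rho of 0.65 (128 wells), and across fat pad wells it was 0.14 (84 wells), as a description of wells that share their libraries and totals.

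The second pattern concerned cell division. Genes of S phase, which copy DNA, are driven largely by E2F factors, and genes of G2 and M phase, which build the spindle and divide the cell, by factors that act through CCAAT boxes and the CHR element TTTGAA. The promoters below are shown because the genes of each phase lay on the same side together. They run over the same span as those above, with CCAAT (or its reverse complement ATTGG) and TTTGAA in capitals for the G2 and M phase genes and an E2F element in capitals for Mcm5. The promoter of Ccnb1 held CCAAT but no TTTGAA. They are chr9:70421535-70421704 for Ccnb2, chr13:100786467-100786636 for Ccnb1 and chr10:69352893-69353062 for Cdk1, all on the minus strand, and chr8:75109359-75109528 on the plus strand for Mcm5.
Ccnb2: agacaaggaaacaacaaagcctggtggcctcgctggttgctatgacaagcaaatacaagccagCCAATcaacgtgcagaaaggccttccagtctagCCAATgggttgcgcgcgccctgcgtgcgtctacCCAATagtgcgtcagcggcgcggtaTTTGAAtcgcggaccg
Ccnb1: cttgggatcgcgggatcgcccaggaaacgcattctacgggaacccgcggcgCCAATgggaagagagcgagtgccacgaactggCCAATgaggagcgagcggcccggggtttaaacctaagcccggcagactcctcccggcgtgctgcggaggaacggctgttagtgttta
Cdk1: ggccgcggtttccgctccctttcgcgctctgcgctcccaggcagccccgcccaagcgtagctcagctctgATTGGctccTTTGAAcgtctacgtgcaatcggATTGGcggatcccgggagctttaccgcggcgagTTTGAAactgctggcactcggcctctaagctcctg
Mcm5: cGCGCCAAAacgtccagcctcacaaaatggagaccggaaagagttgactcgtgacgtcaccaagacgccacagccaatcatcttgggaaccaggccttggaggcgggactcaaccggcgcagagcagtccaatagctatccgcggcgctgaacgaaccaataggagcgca
Over the 300-base windows and both strands, TTTGAA was found in 26 of the 34 G2 and M phase genes with an entry (76.5%), in 3 of 25 S phase genes (12.0%), in 18.1% of all promoters and in 11.5% of the promoters of measured genes. CCAAT was found in 27 of the 34 (79.4%), and also in 12 of 17 class I genes (70.6%), 4 of 6 class II genes (66.7%) and 15 of 25 S phase genes (60.0%), against 37.9% of all promoters and 39.3% of those of measured genes. Every Y box holds the reverse complement of CCAAT. The E2F letters TTTCCCGC or TTTGGCGC were found in 9 of 25 S phase genes (36.0%), in 0 of 34 G2 and M phase genes, in 1.63% of all promoters and in 3.56% of those of measured genes.

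All 37 G2 and M phase genes stood at least 2-fold higher in bone, against 8.84% of measured genes, with a median log2 ratio of 2.00. Ccnb2, a cyclin of mitotic entry, had 0.82 CPM in the lowest, 291 in the median and 985 in the highest bone well, against 0, 0.60 and 745 in fat pad wells. The groups overlapped, since few fat pad wells were as high as bone wells: 5 wells held 12.6% of the bone counts of Ccnb2, and 5 wells held 76.6% of its fat pad counts. Summed, Ccnb2 stood at 346 CPM in bone and 51.3 in the fat pad. Ccna2, the cyclin of S and G2 phase, stood at 466 CPM in bone and 58.6 in the fat pad. For Ccnb1 the values were 340 CPM in bone and 53.9 in the fat pad, and for Birc5, a subunit of the chromosomal passenger complex, 359 and 63.5. Cdk1, the kinase that these cyclins switch on, had a median well of 204 CPM in bone and 2.88 in the fat pad, and a log2 ratio of 1.66. Mki67, the proliferation antigen, stood at 185 CPM in bone and 30.4 in the fat pad, with median wells of 156 and 0.36. The highest wells of Cdk1 were alike in both groups, at 1039 CPM in bone and 1047 in the fat pad.

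The sum of the G2 and M phase list had a median of 6027 CPM in bone wells and 334 CPM in fat pad wells. Every bone well lay above the fat pad median, and 58 of 84 fat pad wells lay below the lowest bone well. Yet 8 fat pad wells exceeded the bone median and the highest well of all, at 26719 CPM, was a fat pad well, against 25140 CPM for the highest bone well. In blood wells, which also hold dividing cells, the list summed to 7219 CPM in bone and 1159 CPM in the fat pad. Bone tumour wells held 724 CPM of neutrophil markers, against 76430 CPM in bone blood wells. For erythroid markers these values were 440 and 911 CPM, with 34.3 CPM in the median bone tumour well. The part of host RNA in the G2 and M phase sums was not tested. The fat pad group held many wells with low G2 and M phase sums and few with high ones, whereas bone wells spread from 510 to 25140 CPM, with quartiles of 2893 and 11682.

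Of 34 S phase genes 30 stood at least 2-fold higher in bone and none lower, with a median log2 ratio of 1.72. Rrm2, a subunit of ribonucleotide reductase, which makes the building blocks of DNA, had 4.40, 338 and 1460 CPM in the lowest, median and highest bone well, against 0, 0.39 and 606 in fat pad wells. Its groups overlapped through a minority of fat pad wells, and 5 wells held 70.4% of its fat pad counts. Mcm5, part of the replicative helicase, stood at 403 CPM in bone and 58.7 in the fat pad, and Cdc6, which loads that helicase, at 67.0 and 4.44. Tk1, thymidine kinase, stood at 363 CPM in bone and 54.6 in the fat pad. Pcna, the sliding clamp of DNA polymerase, differed less, with median wells of 349 CPM in bone and 85.9 in the fat pad. Across bone wells the S phase and G2 and M phase sums had a Spearman rho of −0.55, and across fat pad wells 0.53. In bone, wells high for 1 phase tended to be low for the other. In the fat pad the sums rose together over wells that were mostly low for both. Of these wells 8 exceeded the bone median for G2 and M phase and 4 exceeded that for S phase. The fat pad well highest for G2 and M phase had an S phase sum of 1146 CPM. The one highest for S phase, at 8772 CPM, had 1929 CPM for G2 and M phase.

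**Figure D3:**
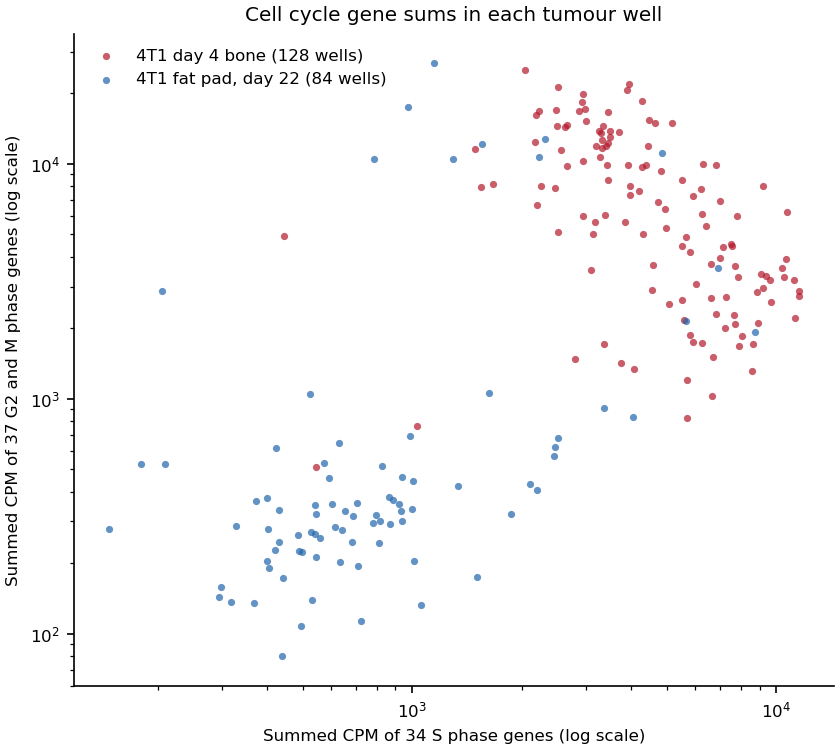
Each point is a tumour well, with the summed CPM of the S phase genes on the x axis and of the G2 and M phase genes on the y axis, both on log scales, bone and fat pad in different colours. Bone wells fill the upper right along a falling band (Spearman rho −0.55), and most fat pad wells sit at the lower left with 8 above the bone median of 6027 CPM on the y axis.

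Serine synthesis and the one-carbon cycle, which supply carbon units for nucleotides, ran higher in bone too. Of 13 measured genes 11 stood at least 2-fold higher and none lower, with a median log2 ratio of 1.55, and some of them, such as Tyms, belong to the S phase list as well. Psat1, the second enzyme of serine synthesis, had 1.12, 286 and 773 CPM in the lowest, median and highest bone well, against 0, 0.32 and 410 in fat pad wells. Of 84 fat pad wells 1 exceeded the bone median of Psat1, and the summed log2 ratio was 3.51. Phgdh, the first enzyme, stood at 677 CPM in bone and 244 in the fat pad, with a fat pad median of 172 CPM. Mthfd2 and Shmt2, mitochondrial enzymes of the folate cycle, stood at 96.0 and 285 CPM in bone and 6.33 and 94.5 in the fat pad. The sum of the list had a median of 2051 CPM in bone wells and 530 in fat pad wells, and 0 fat pad wells exceeded the bone median.

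The integrated stress response, in which Atf4 switches on amino acid supply, had a median log2 ratio of 0.57 over 19 genes, 5 higher and 2 lower by 2-fold. It lay inside the limit of 0.5 in 3 of 14 other settings, at 0.49 with DESeq2 size factors. Chac1, which breaks down glutathione, stood at 81.1 CPM in bone and 4.06 in the fat pad, Asns, asparagine synthetase, at 148 and 24.2, and Slc7a5, an amino acid transporter, at 179 and 47.0. Nupr1, a stress-induced nuclear protein, was the reverse, with 289 CPM in bone and 911 in the fat pad. Ribosome biogenesis genes had a median of 0.92, with 8 of 22 higher and none lower by 2-fold. Odc1, the first enzyme of polyamine synthesis and a Myc target, led them at 428 CPM in bone and 50.7 in the fat pad, and Rrp12 and Dkc1, factors of ribosomal RNA processing, followed at log2 ratios of 1.65 and 1.35. Ribosomal proteins themselves had a median of −0.44, with 0 of 76 higher and 5 lower by 2-fold.

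Epithelial genes formed the next large group. Tight junctions, adherens junctions and desmosomes hold epithelial cells together, and carcinoma cells can lower their genes while genes of mesenchymal cells go up. Of 31 measured junction genes 23 stood at least 2-fold lower in bone and none higher, with a median log2 ratio of −1.74. Epcam, an adhesion molecule of epithelia (chr17:87635979-87651129), had 0 CPM in the lowest, 0.53 in the median and 1458 in the highest bone well, against 14.4, 1395 and 5116 in fat pad wells. Most bone wells held next to none of it, and 1 bone well exceeded the fat pad median: 5 wells held 54.9% of the bone counts of Epcam and 15.7% of the fat pad counts. Cldn4, a claudin of tight junctions, had 0, 0 and 439 CPM in the lowest, median and highest bone well, against 5.68, 549 and 2837 in fat pad wells. No bone well reached the fat pad median, 5 bone wells held 69.6% of the bone counts, and the summed log2 ratio was −4.62. Cldn3 stood at 22.9 CPM in bone and 390 in the fat pad, also with a bone median of 0. Cdh1, E-cadherin, was the milder case at 49.5 CPM in bone and 221 in the fat pad, with median wells of 9.32 and 177. Desmoplakin (Dsp), the splicing factor Esrp1 and the epithelial transcription factor Elf3 had log2 ratios of −2.47, −2.56 and −3.11. The junction sum of a well had a median of 1011 CPM in bone and 6521 in the fat pad, with 1 bone well above the fat pad median and 81 fat pad wells above the bone median.

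**Figure D4:**
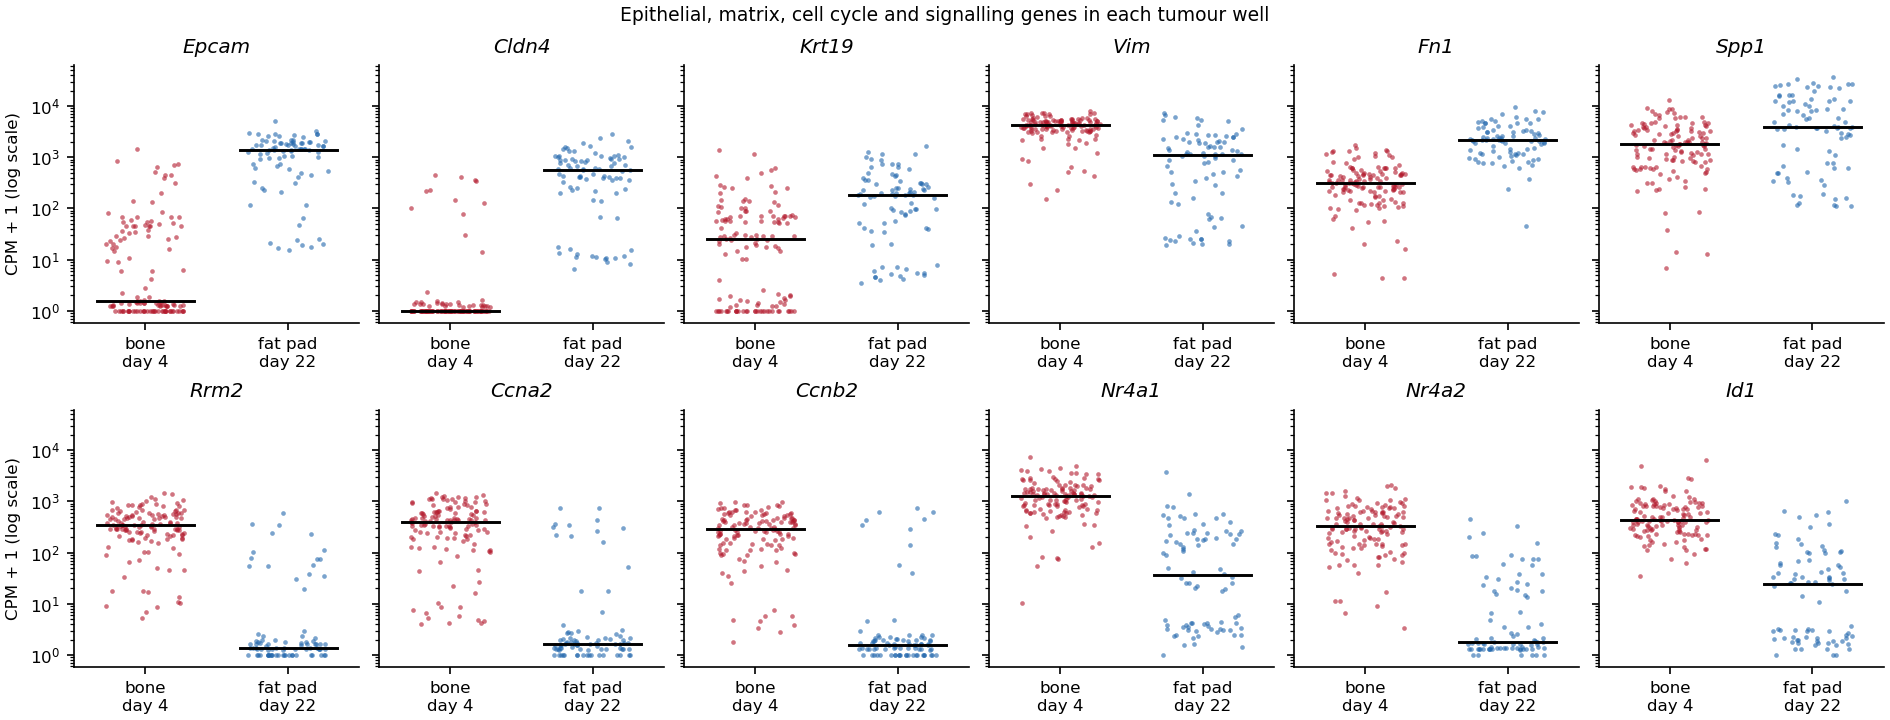
Each point is a tumour well, bone left and fat pad right in each panel, with CPM of that well plus 1 on a log axis and the bar at the median. Rrm2, Ccna2, Ccnb2 and Nr4a2 have fat pad medians under 1 CPM, and Epcam and Cldn4 have bone medians under 1 CPM, with single wells of the lower group among those of the higher.

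Keratins other than Krt8 and Krt18 had a median of −0.98 over 7 measured genes, 3 lower and 1 higher by 2-fold. Krt7 and Krt19, partners of the simple epithelial keratins, stood at 312 and 90.1 CPM in bone and 839 and 290 in the fat pad. Krt17, a keratin of basal and stressed epithelia, had a log2 ratio of −4.13 but a fat pad median of 2.68 CPM, and 5 wells held 60.7% of its fat pad counts. Mesenchymal genes had a median of 0.68, with 5 of 14 higher and 3 lower by 2-fold. Vim, the intermediate filament of mesenchymal cells, had 151, 4200 and 7881 CPM in the lowest, median and highest bone well, against 18.1, 1102 and 7300.5 in fat pad wells. The ranges overlapped over most of their length, but 119 of 128 bone wells exceeded the fat pad median. S100a4, a calcium-binding protein of motile cells, stood at 209 CPM in bone and 64.5 in the fat pad, and Sparc, a matrix protein that binds collagen, at 401 and 166. In lower-numbered wells S100a4 and Sparc had log2 ratios of 0.84 and 0.97 and were within 2-fold. Fn1, fibronectin, ran against the list with 404 CPM in bone and 2752 in the fat pad, as did the matrix protein Tnc at 6.16 and 65.9. With no minimum level the median of this list was 0.03. Epcam and Vim had a Spearman rho of −0.12 across bone wells and −0.63 across fat pad wells.

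Hypoxia genes, which the HIF factors switch on when oxygen runs short, were lower in bone. Their element holds the letters ACGTG. The promoter of Car9, which codes for a carbonic anhydrase at the cell surface, is shown as the member furthest down (chr4:43506876-43507045, plus strand), with CACGT, the other strand of the element, in capitals at −18 to −14.
Car9: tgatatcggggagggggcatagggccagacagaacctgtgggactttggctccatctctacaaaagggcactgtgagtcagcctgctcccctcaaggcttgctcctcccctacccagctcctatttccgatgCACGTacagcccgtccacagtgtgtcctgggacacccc
The letters were found on either strand in 12 of 20 measured hypoxia genes with an entry (60.0%), in 19.7% of all promoters and in 27.0% of those of measured genes. Of 25 measured genes 14 stood at least 2-fold lower in bone and none higher, with a median log2 ratio of −1.14. Car9 had 0, 0.23 and 122 CPM in the lowest, median and highest bone well, against 0.34, 56.8 and 1054 in fat pad wells. The ranges overlapped, although 30 of 84 fat pad wells lay above every bone well. Adm, the vessel-relaxing peptide adrenomedullin, stood at 2.89 CPM in bone and 53.5 in the fat pad, but its fat pad median was 1.06 CPM. Ndrg1, Bnip3 and Slc2a1, a stress protein, a mitophagy receptor and the main glucose transporter, had log2 ratios of −2.22, −2.56 and −1.69. Vegfa, the growth factor of vessels, did not follow, at 19.8 CPM in bone and 9.02 in the fat pad. Glycolysis enzymes had a median of −0.13, with 1 of 17 lower by 2-fold, and Ldha, which makes lactate, stood at 1778 CPM in bone and 1385 in the fat pad.

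Immediate early genes answer growth signals within minutes. Their median was 0.17, with 8 of 37 higher and 1 lower by 2-fold, and Fos and Jun, the parts of AP-1, stood at 6962 and 1242 CPM in bone and 6744 and 1404 in the fat pad. Members of that list with large ratios were orphan nuclear receptors of the NR4A family. Nr4a2 had 2.31 CPM in the lowest, 327 in the median and 2084 in the highest bone well, against 0, 0.80 and 451 in fat pad wells. Every bone well lay above the fat pad median, and 5 fat pad wells held 62.7% of the fat pad counts. Nr4a1 stood at 1546 CPM in bone and 213 in the fat pad, with median wells of 1271.5 and 35.3. Dusp2, a nuclear phosphatase of MAP kinases, stood at 552 CPM in bone and 38.2 in the fat pad. Dusp6, the cytoplasmic phosphatase of ERK, ran against them at 382 CPM in bone and 1197 in the fat pad.

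Among TGF-beta and BMP response genes 6 of 25 stood higher and 6 lower by 2-fold, with a median of −0.27. Id1 and Id2, inhibitors of differentiation that BMPs induce, stood at 659 and 212 CPM in bone and 80.7 and 19.9 in the fat pad. Id1 ran from 33.4 CPM in the lowest through 435 in the median to 6326 in the highest bone well, against 0, 23.7 and 1020 in fat pad wells. Every bone well thus lay above the fat pad median of Id1, though the ranges overlapped. Thbs1 and Ctgf, secreted matrix proteins, lay the other way with log2 ratios of −2.66 and −2.22, and by the median well Ctgf was within 2-fold at −0.44.

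NF-kB targets and cytokines were mixed. Of 26 measured genes 13 stood at least 2-fold lower in bone and 3 higher, with a median of −0.92, but by the median well the list stood at 0.21, where the median of all measured genes was 0.53. Lcn2, lipocalin 2, which binds bacterial iron carriers, had 16.5, 40.3 and 495 CPM in the lowest, median and highest bone well, against 19.6, 1180 and 12484 in fat pad wells. In 59 of 84 fat pad wells Lcn2 lay above every bone well, and the summed log2 ratio was −5.20. Neutrophils make it too, and it stood at 4838 CPM in bone blood wells and 31.3 CPM in fat pad blood wells. Cxcl1, which attracts neutrophils, stood at 320 CPM in bone and 2157 in the fat pad, with median wells of 179 and 784. Il1a, Ccl2 and Tnf, an alarm cytokine, a chemokine for monocytes and an inflammatory cytokine, had log2 ratios of −4.61, −2.98 and −2.97, yet their median fat pad wells held 5.90, 3.68 and 0.87 CPM. For Tnf 5 wells held 79.1% of the fat pad counts. The 3 genes on the other side were Nfkb2, an NF-kB subunit, at 171 CPM in bone and 58.8 in the fat pad, Ptgs2, which makes prostaglandins, at 745 and 298, and Icam1, an adhesion molecule, at 29.1 and 10.3. C3, the central complement protein, stood at 6.18 CPM in bone and 265 in the fat pad, with 304 and 39.1 CPM in the blood wells of the same groups.

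Growth factors and their receptors had a median of −0.53, with 8 of 26 lower and 3 higher by 2-fold. It lay inside the limit of 0.5 in 9 of 14 other settings, at 0.09 by the median well, and so was not a stable difference. Pdgfc and Osmr, a PDGF ligand and the receptor of oncostatin M, stood at 4.67 and 37.4 CPM in bone and 57.2 and 204 in the fat pad. Among EGF receptor ligands Areg and Btc were higher, with 197 and 21.9 CPM in bone and 43.6 and 0.39 in the fat pad. Epgn, another such ligand, was lower at a log2 ratio of −1.14, and Hbegf and Tgfa were within 2-fold at −0.44 and 0.88. By the median well Btc had a log2 ratio of 0.09 and was no longer 2-fold apart. Checkpoint and immune evasion genes had a median of −0.89, with 7 of 14 lower and none higher by 2-fold, and lay inside the limit in 3 of 14 other settings, at −0.39 with no minimum level. Nt5e, the ectoenzyme CD73 that makes adenosine, stood at 117 CPM in bone and 563 in the fat pad, with median wells of 78.5 and 387. Cd274, which codes for PD-L1, stood at 21.9 CPM in bone and 39.8 in the fat pad and thus within 2-fold. Nos2 and Arg1, enzymes that use arginine, are also made by macrophages. Arg1 had 0 to 3.20 CPM in bone wells and 17.1 to 1442 CPM in fat pad wells, and it stood at 8.22 CPM in bone blood wells and 12799.7 CPM in fat pad blood wells. The part of macrophage RNA in the fat pad value was not tested.

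Genes linked to bone had a median of −0.49 over 11 measured members, 1 higher and 2 lower by 2-fold, and in 14 other settings it ran from −0.79 in higher-numbered wells to 0.89 by the median well. Spp1, osteopontin, had 5.80, 1778 and 13262 CPM in the lowest, median and highest bone well, against 108, 3938 and 36827 in fat pad wells. The ranges overlapped widely, and the summed log2 ratio was −1.90. Ibsp, bone sialoprotein, stood at 0.97 CPM in bone and 98.5 in the fat pad, where 5 wells held 59.2% of the counts. Il11, a cytokine that favours osteoclasts, was the member on the other side at 29.5 CPM in bone and 2.73 in the fat pad, with a log2 ratio of 2.16 that was 0.41 by the median well. Collagen chains (−0.38), integrin and laminin chains (−0.28), proteases and their inhibitors (−0.43) and growth arrest genes (−0.32) had medians within the limit. Heat shock genes (−0.12), sterol and fatty acid synthesis (−0.14) and mitochondrially encoded proteins (−0.02) lay close to 0. The nuclear respiratory chain (0.31), endoplasmic reticulum chaperones (0.32), NRF2 targets (0.44) and iron handling genes (0.17) lay slightly above.

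**Figure D5:**
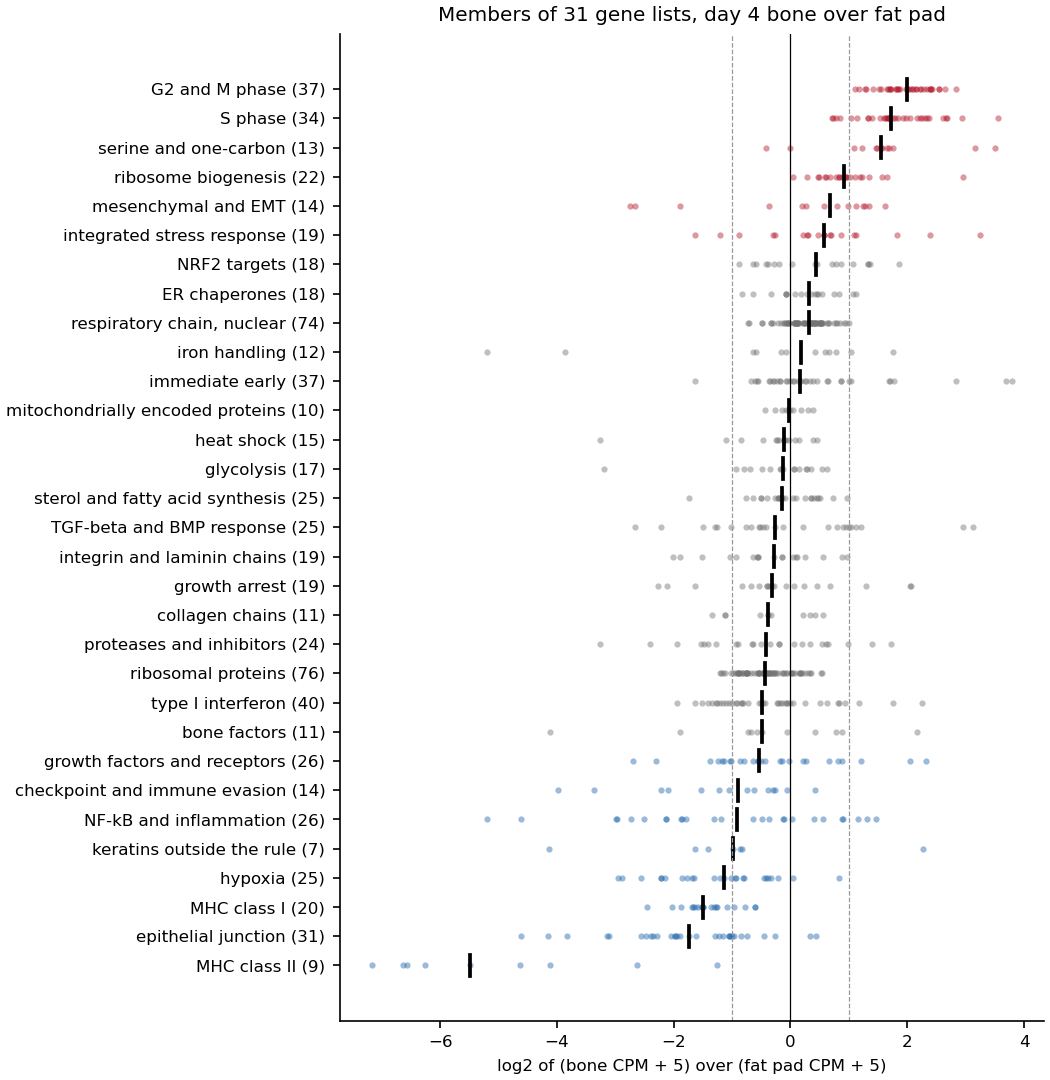
Each row is a gene list with its number of measured genes, points are their log2 ratios of bone over fat pad (5 CPM added), bars are the medians and dashed lines mark 2-fold. Lists with a median of 0.5 or more are red, those of −0.5 or less blue and the others grey. MHC class II lies furthest left at −5.49, and the G2 and M phase list furthest right at 2.00.

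Several single genes outside the lists stood far apart. Tmprss6, a membrane protease known from the liver for lowering hepcidin, had 1 count in all bone wells together, against 2.00 CPM in the lowest, 174 in the median and 1209 in the highest fat pad well. Every fat pad well lay above every bone well, and no fold is given against 1 count. Its level in fat pad blood wells was 4.86 CPM. Moxd1, a relative of dopamine beta-hydroxylase, stood at 4.70 CPM in bone and 331 in the fat pad, Ramp1, a partner of the CGRP receptor, at 1.10 and 131, and Sectm1b at 0.089 and 108. The fat pad median of Sectm1b was 2.41 CPM, and 33 of 84 fat pad wells held 20 CPM or more of it. Higher in bone were Selp, P-selectin, with 140 CPM in bone and 5.40 in the fat pad, and Dlk2, a membrane protein with EGF-like repeats, with 66.8 and 1.00. Their median bone wells held 40.2 and 39.0 CPM, and their median fat pad wells 0 CPM each. Platelets and endothelium also make Selp, and the marker lists of those cells summed to 1.49 CPM (megakaryocytes) and 1.56 CPM (endothelium) in bone tumour wells, against 4.60 and 0.72 CPM in fat pad tumour wells.

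Genes of blood cells led the higher side in part. S100a8, a calcium-binding protein of neutrophils, had 90.8 CPM in the lowest, 233 in the median and 1020 in the highest bone well, against 0, 0 and 19.3 in fat pad wells, so that the groups did not overlap. S100a9, Ngp and Camp, which are further neutrophil proteins, did not overlap either. These 4 of the 15 genes furthest higher stood at least 10-fold above the tumour wells in the bone blood wells. In all, 13 of 10487 measured genes (0.124%) had every bone well above every fat pad well, and 3 (0.0286%), Tmprss6, Arg1 and Mmp12, had every bone well below. Among the 13 is Coro1a, a blood gene of the rule, which leaves 12. Of the genes that the rule did not use, 14 of 15 stood higher in the blood wells of the group in which they were higher, all but Tmprss6. The haemoglobin gene Hbb-bs had 74970 counts in bone tumour wells and 0 in fat pad wells. For the erythroid markers 2 bone wells held 34.7% and 55.8% of the group's counts, at 45421 and 32093 CPM. Over all measured genes, 25 of the 927 higher and 15 of the 945 lower were of this host-led kind, which left 902 and 930.

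The other groups of the series give levels of the same genes beside those above, with 54 tumour wells of cultured 4T1, 43 of bone at day 10, 64 of bone at day 16 and 23 of the 4T1.2 line in bone at day 4. H2-Aa had no count in culture and stood at 809 CPM in day 10 bone, 691 in day 16 bone and 2.39 in 4T1.2 bone at day 4. Epcam stood at 199.5 CPM in culture, 83.6 in day 10 bone, 819 in day 16 bone and 0 in 4T1.2 bone at day 4. Ccnb2 stood at 198 CPM in culture, 316 in day 10 bone, 44.5 in day 16 bone and 218 in 4T1.2 bone at day 4. Nr4a2, which was high in day 4 bone, stood at 3.18 CPM in culture, 657 in day 10 bone, 941 in day 16 bone and 46.7 in 4T1.2 bone at day 4. Car9 stood at 10.3 CPM in culture, 108 in day 10 bone, 456 in day 16 bone and 0.22 in 4T1.2 bone at day 4. The sums of day 4 bone and the fat pad were 8.06 and 1298 CPM for H2-Aa, 73.4 and 1399.7 for Epcam, 462 and 28.6 for Nr4a2 and 15.3 and 152 for Car9.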

How the data were processed

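Per the labels, RNA of single sorted cells was primed with oligo-dT, amplified by a modified Smart-seq2 protocol and sequenced in pairs of 150 bases. The values the authors deposited are read counts for each gene and well, and not molecules. Per the labels, wells with a Ct above 30 in a qPCR of mCherry had been discarded. Build mm10 is given in the submitters' processing notes, along with STAR 2.6.0c, featureCounts 1.6.2, Seurat 3.1.2, Trim Galore 0.6.6, R 3.6.2, SAMtools 1.7 and FastQC 0.11.7, with no role for each. The annotation and the use of strand are not given in the sources used here, so reads of a gene and an antisense partner cannot be told apart. Of 40840 entries, 78 ERCC spike-ins (0.67% of counts) and 2 reporters (0.187%) stayed out of library sizes, and 4 repeated date-like symbols (0.0149%) were left out. No columns held identical values.

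Wells were grouped by line, day and site from their own labels. The tumour wells of a group were added up, and the sums became CPM through TMM factors over 7 groups (edgeR 4.0.16, R 4.3.3). Other steps used Python 3.11.15, numpy 2.4.6, pandas 2.3.3, scipy 1.17.1 and matplotlib 3.10.9. No doublet caller was run, and wells with both keratin and at least 300 CPM of the blood sum (9 in bone, 1 in the fat pad) were left out. No test was made, because each group is 1 sample. Only the TMM scaling and the log2 ratio were tried on simulated sums of bone and the fat pad. The rule for wells, host RNA, the lists, the choice of named genes and the promoter search were not simulated.

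Members and lists were chosen with earlier results of these data known. Named genes are of 3 kinds. The first are the 15 each way furthest apart at 20 CPM or more, with a read in 30% of wells thinned to 500000 counts (2 bone wells and 1 fat pad well were shallower) and 2-fold apart with wells weighted equally. The second are the 8 each way with the widest gap between quartiles. The third are up to 4 members of a list in its direction and 2 against it. Cdh1, Cdk1, Ciita, Cd274, Cxcl1, Dsp, Elf3, Esrp1, Fos, H2-D1, H2-DMa, H2-K1, Icam1, Irf1, Jun, Ldha, Mki67, Mmp12, Pcna, Phgdh, Psmb8, Shmt2, Slc2a1, Tap1, Tk1 and Vegfa were chosen after their values were seen. So were Epgn, Fosb, Fosl1, Fosl2, Hbegf, Junb, Jund and Tgfa. Some genes that the rule picks are not reported here. So was the leaving out of host-led genes, which are 10-fold higher in blood wells of the group where they are higher. Positions are from GENCODE M21 and promoters from RefSeq (GRCm38.p6). Alternatives were DESeq2 1.42.0 size factors, totals without TMM, other CPM added, no minimum level or one of 20 CPM, a stricter filter of wells, other blood limits, equal or median wells and the lower- or higher-numbered wells.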

Additional observations from a re-analysis of the deposited data

How the results depend on the processing

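Each group is 1 sample, so no alternative measures the spread between animals, and wells of low depth limit genes under 5 CPM most. No paired analysis was possible because no replicate number ties wells of the groups together and no test was made. Over 13 settings, and 1 added after seeing the data, 412 of 434 recomputed list medians moved by less than 0.5. Direction was checked only for lists at least 0.5 from 0, where 2 recomputed medians reversed. Medians of other lists could change sign and still count among the 412, as mitochondrially encoded proteins did at 0.019 without TMM. Of the 141 named genes past 2-fold, 98 stayed past it in each of the 11 settings run for single genes. With 1 CPM added the MHC class II median was −6.45, and with 20 CPM added 427 genes were higher and 419 lower, MHC class II stood at −3.77 and epithelial junctions at −1.19. The fold of low genes follows the CPM added by construction. With no minimum level MHC class II stood at −4.62, mesenchymal genes at 0.034 and checkpoint genes at −0.39. The median well in place of the sum gave 2490 higher genes and a median of 0.53 over all measured genes. It turned NF-kB targets to 0.21, growth factors to 0.087 and the genes Lamb2 (0.81), Trp53inp1 (0.10), Dnajb1 (0.40) and Vsir (0.24). It also gave −1.63 for interferon, −7.02 for MHC class II, −2.30 for junctions and −3.35 for keratins. Higher values by the median well were 0.44 for glycolysis, 0.66 for collagens, 0.32 for integrins and laminins, 0.89 for bone factors, 3.48 for S phase, 3.96 for G2 and M phase, 3.38 for serine, 1.34 for sterols and 0.87 for iron. In lower-numbered wells bone factors stood at 0.14. The cause of these shifts was not tested. Leaving out host-led genes, chosen after seeing the data, left 902 higher and 930 lower genes.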
